A study of Sus scrofa with 34 samples.

Results

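Oxidized oil was given to pigs that all ate a phytogenic feed additive (PFA), and gene expression was measured in the liver. The comparison sets 5 pigs fed oxidized oil together with PFA (OO + PFA) against 6 pigs fed PFA alone, 11 of the 34 samples in the series, and covers all genes. The pigs were chosen by the diet in their labels, with 1 OO + PFA pig left out because the study suspected degraded RNA in it. The animals were weaned crossbred piglets sampled on day 28, with 1 pen per diet, which leaves an effect of the pen inseparable from that of the diet (they cannot be told apart). PFA is a blend with menthol, carvacrol, methyl salicylate and the oils of caraway and oregano, and the groups compared both received it. The oil was rapeseed oil oxidized by long heating in a fryer and was added on top of a diet holding little fresh rapeseed oil, so the OO + PFA diet was also richer in fat and energy and poorer in every other ingredient. Oxidation, fat and dilution cannot be told apart. Pigs fed oxidized oil without PFA (OO, 6 pigs) and control pigs (6 pigs) serve here only to set the effect of the oil with PFA beside the effect without it. Pigs are named by P for PFA and OP for OO + PFA with the number in their label, and values of the OO + PFA pigs are given in the order OP-79, OP-98, OP-105, OP-126 and OP-137.

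The liver burns fatty acids in mitochondria, where carnitine palmitoyltransferases carry long chains across the membrane and a cycle of dehydrogenases and hydratases shortens them, and in peroxisomes, which begin the breakdown of very long and branched chains. PPAR-alpha, a nuclear receptor that binds fatty acids and some of their oxidized products, drives many of these genes, and it is also active in fasting. In fasting, glucagon and cortisol raise a second program through the cAMP-responsive factor CREB and the glucocorticoid receptor, with gluconeogenesis and amino acid breakdown as its main outputs. Insulin drives fat synthesis and glycolysis in the opposite state. These statements are background and were not measured here.

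Between 24478611 and 42446834 read pairs were counted on genes in the PFA pigs (median 28237193), and between 21861728 and 31252476 in the OO + PFA pigs (median 25457184). Expression is given as CPM, the count of a gene scaled to a common library size by the TMM method. The slope of log2 CPM on the GC content of genes lay between -0.72 and -0.18 log2 units per 10% GC in the PFA pigs and between -0.20 and 0.24 in the OO + PFA pigs, so it moved with the diet, and only P-138 and OP-105 overlapped. Of the read pairs placed at 1 position, between 6.83% and 12.2% lay on no gene in the PFA pigs, against 10.2% to 13.4% in the OO + PFA pigs. Titles of the libraries begin with PigLiv or with PL, 3 of each in the PFA group and 4 PigLiv and 1 PL in the OO + PFA group. Results that change with these measures are given with their values, and the part of these measures in the results was not tested otherwise. Genes that define hepatocytes summed to between 121633 and 219798 CPM in the PFA pigs and between 112974 and 142045 in the OO + PFA pigs, and none of their 10 genes was called.

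Oxidized oil raised more genes than it lowered in PFA-fed pigs. Of 13831 genes tested, 218 (1.58%) were called with edgeR's quasi-likelihood test at a Benjamini-Hochberg adjusted p of at most 0.05, 172 higher (1.24%) and 46 lower (0.333%) with the oil. Of these, 121 higher and 12 lower genes also changed at least 2-fold. The genes that rose included DHRS4, CPT1A, CPT2, PLIN5 and PCK1, and the genes that fell included the lipogenic gene THRSP, the glycolytic activator PFKFB3 and the iron importer TFRC. The median log2 fold change over all genes was 0.0027, and 50.3% of genes were above 0. The OO + PFA pigs lay all above the PFA pigs in 648 genes (4.69%) and all below in 249 (1.8%), together 897 (6.49%), and 158 of the 218 called genes were among these. With a correction for GC content, in the 11042 genes with a GC value, 170 genes were higher and 119 lower, a share of 58.8% higher against 78.9% as reported, and DESeq2's Wald test gave 59.7%. In the 7 PigLiv libraries of the pair of diets, fitted with the PigLiv libraries of the other diets, 30 genes were called, 28 of them among the 218.

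**Figure D1:**
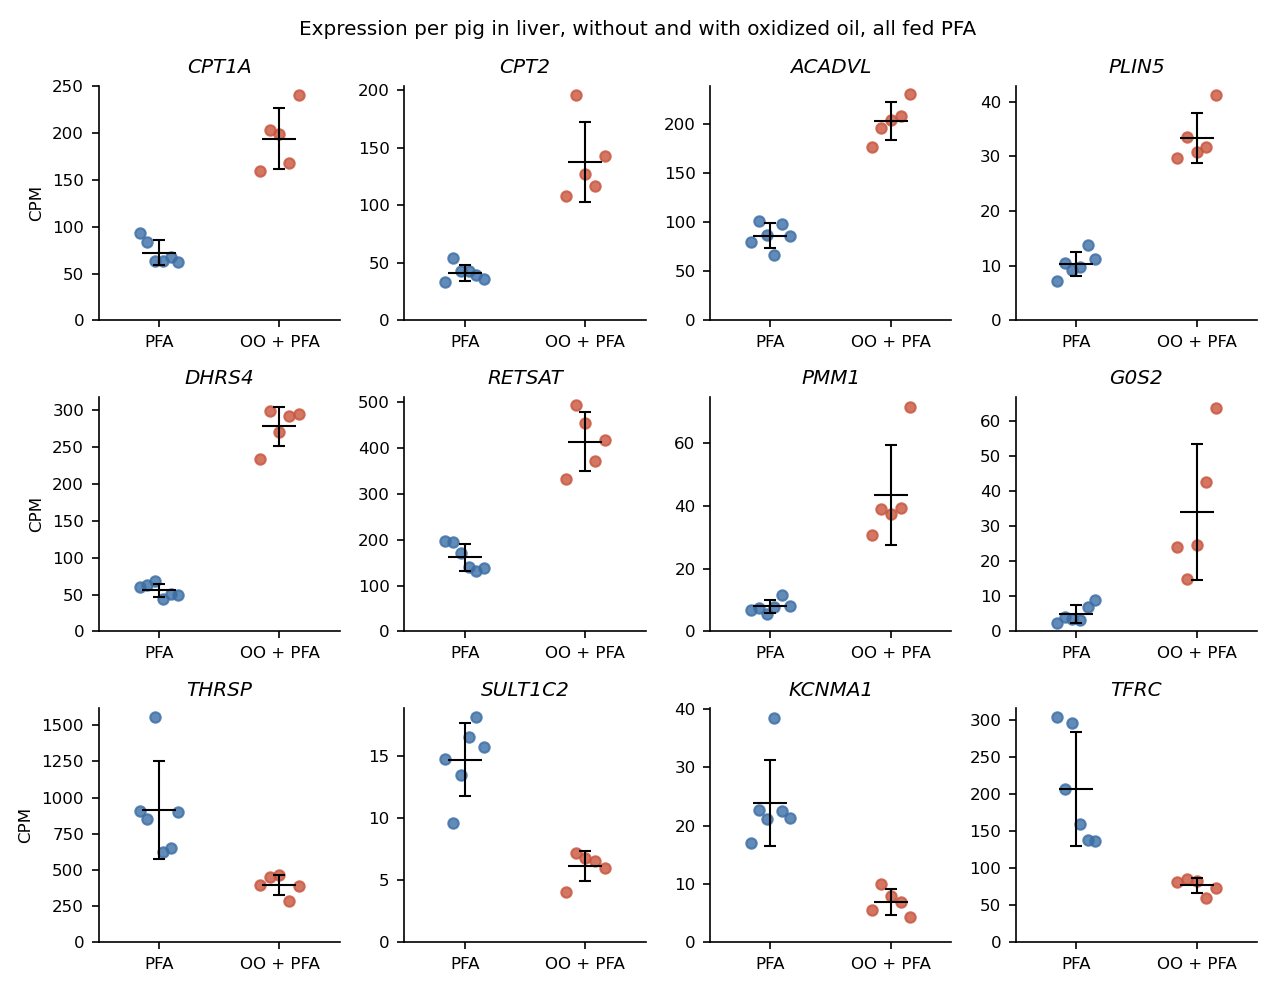
Expression (CPM, linear axes from 0) of 12 genes in each of 6 PFA pigs (blue) and 5 OO + PFA pigs (red), with the mean and SD in black. In each of the 12 genes the 2 groups do not overlap, with CPT1A at 62.0 to 93.3 CPM against 159.7 to 241 and TFRC at 136 to 304 against 59.5 to 85.7.

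Genes of mitochondrial fatty acid oxidation rose together. Of 25 list members tested, 9 were called higher and 0 lower (36.0%, against 1.58% of all genes called), and 16 did not pass. The median log2 fold change of the list was 0.57, and 21 of 25 were above 0. CPT1A (ENSSSCG00000012880, chromosome 2, 4250642 to 4293914), the outer-membrane transferase that sets the rate of long-chain import, lay between 62.0 and 93.3 CPM (median 66.0) in the PFA pigs and at 159.7, 203, 199, 168 and 241 CPM in the OO + PFA pigs. Every oil-fed pig was above every pig without oil, and the log2 fold change was 1.42 (SE 0.15, adjusted p = 9.59e-06). CPT2 (ENSSSCG00000003851, chromosome 6, 159038129 to 159061327), its inner-membrane partner, was between 33.4 and 53.9 CPM (median 40.8) without oil and at 108, 196, 127, 116 and 143 CPM with it. It was 3.33-fold higher (log2 fold change 1.74, SE 0.19, adjusted p = 9.59e-06), and the groups again did not overlap. ACADVL (ENSSSCG00000017947, chromosome 12, 52573521 to 52581755), which starts the cycle on very long chains, was between 66.5 and 101 CPM (median 85.8) without oil and at 176, 195, 204, 208 and 230.0 CPM with it, a narrow range within each diet and a log2 fold change of 1.23 (SE 0.16, adjusted p = 1.29e-04). The other called members were HADHA and HADHB, the subunits of the trifunctional protein (log2 fold changes 0.85 and 0.67), ACSL1, which activates long-chain fatty acids (0.76), the carnitine acetyltransferase CRAT (1.07), the acyl-CoA dehydrogenase ACADL (0.80) and CPT1B, the muscle form of the transferase (1.01). Leaving out P-107 left 4 called, the fewest of all fits without 1 pig, and in the PigLiv libraries 4 were called. ACADL and CPT1B each lost the call in 16 alternatives, HADHB in 12, CRAT and ACSL1 each in 4 and HADHA in 1.

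Some genes of peroxisomal oxidation rose as well. Of 19 tested, 5 were called higher and 0 lower (26.3%, against 1.58% of all genes), with a list median of 0.11: SLC27A2, which imports and activates very long chains (log2 fold change 1.15, SE 0.19, adjusted p = 0.00156), the transporter ABCD3 (1.03), the oxidase ACOX3 for branched chains (0.86), the thiolase ACAA1 (0.87) and CRAT. Without P-95 3 genes of the list were called, and 1 in the PigLiv libraries. ACAA1 lay between 279.9 and 382 CPM (median 351) in the PFA pigs and at 542, 649, 578, 521 and 783 CPM in the OO + PFA pigs, without overlap. ABCD3 was less even, at 124, 305, 305, 198 and 200.5 CPM, with OP-79 within the range of the PFA pigs (84.7 to 138). Of 18 genes that build peroxisomes, 0 were called (edgeR, 1 of 18 without overlap). PEX11A (ENSSSCG00000027052, chromosome 7, 55256239 to 55264253), which divides peroxisomes, lay between 17.7 and 24.8 CPM (median 18.7) without oil and at 19.6, 28.5, 34.0, 23.5 and 27.6 CPM with it, a log2 fold change of 0.44 (SE 0.17, adjusted p = 0.135) that did not pass. Without PFA its log2 fold change was 1.31 (SE 0.16, adjusted p = 3.16e-05), and the difference between the oil effects was -0.87 (SE 0.23, adjusted p = 0.164) by edgeR, while DESeq2 called it (adjusted p = 0.0478). Ketone body genes did not pass either, 0 of 8.

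PPAR-alpha targets and fasting signals rose too. Of 29 tested, 11 were called higher and 0 lower (37.9%, against 1.58% of all genes), with a list median of 0.72 on the log2 scale and 27 of 29 above 0. CPT1A, HADHA and ACSL1 are in this list too, as are PLIN2 and G0S2 of the lipid droplet list and GYS2 of the glucose metabolism list. RETSAT is also in the list of lipid aldehyde detoxification, and KLF15, given below with amino acid breakdown, is a member here. These lists are thus not separate counts. NNAT is also a member, and the study had already reported it as the largest rise with oil in these livers. Its call is therefore not independent of these data. FGF21, a hormone that the liver releases in fasting, lay between 2.37 and 17.2 CPM (median 7.82) in the PFA pigs and at 15.2, 26.7, 31.5, 33.1 and 60.5 CPM in the OO + PFA pigs, where OP-79 was below the highest PFA pig, P-134 (log2 fold change 2.005, SE 0.46, adjusted p = 0.0252). Its call was lost in 8 alternatives. CREB3L3, a liver transcription factor that works with PPAR-alpha, was between 159 and 219 CPM (median 198) without oil and at 420.2, 311, 313, 284 and 459 CPM with it, without overlap (log2 fold change 0.91, SE 0.14, adjusted p = 0.00122). RETSAT, which saturates retinol, was at 132 to 196 CPM (median 156) against 332, 493, 455, 372 and 416 CPM, with a log2 fold change of 1.35 (SE 0.16, adjusted p = 2.59e-05). NNAT (ENSSSCG00000007336, chromosome 17, 40625990 to 40629523), neuronatin, a small protein of the endoplasmic reticulum, was nearly silent without oil, between 0.0375 and 0.225 CPM (median 0.0708), and at 1.61, 3.44, 2.23, 1.17 and 1.38 CPM with it. No PFA library held more than 6 counts of NNAT, so its log2 fold change of 4.16 (SE 0.49, adjusted p = 2.66e-05) depends on the prior count, while the groups did not overlap. In the PigLiv libraries 4 genes of this list were called, and 8 without P-107.

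DHRS4 (ENSSSCG00000002013, chromosome 7, 75242121 to 75255594), a peroxisomal dehydrogenase that reduces retinal and other carbonyls, had the smallest p of all genes. Its PFA pigs lay between 44.0 and 67.8 CPM (median 55.6) and its OO + PFA pigs at 234, 298, 270.2, 291 and 295 CPM. That is a 4.99-fold difference with little spread on either side (log2 fold change 2.32, SE 0.20, adjusted p = 7.50e-07). Among genes with a symbol PMM1, which interconverts mannose phosphates, came next, at 5.51 to 11.6 CPM (median 7.73) against 30.6, 39.2, 37.4, 39.3 and 71.4 CPM (log2 fold change 2.45, SE 0.24, adjusted p = 2.20e-06). RAB30, a Golgi GTPase, was between 2.10 and 2.96 CPM (median 2.67) without oil and at 4.89, 8.81, 8.52, 8.34 and 20.4 CPM with it (log2 fold change 1.96, SE 0.25, adjusted p = 9.82e-05), and the mitochondrial carrier SLC25A45 between 1.38 and 6.14 CPM (median 2.79) and at 20.4, 19.9, 17.4, 8.53 and 42.8 CPM (log2 fold change 2.84, SE 0.40, adjusted p = 3.05e-04). Each of these 4 genes kept its call under all 25 alternatives. Of the 89 named genes that were called, 15 kept the call under every alternative that gave them a value, among them CPT1A, CPT2, ACADVL, SLC27A2, RETSAT, PLIN5, NNAT, TP53INP2 and ARG1.

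Several genes in a list of lipid droplet proteins and lipases rose as well. Of 21 tested, 6 were called higher and 0 lower (28.6%, against 1.58% of all genes), with a median of 0.61. PLIN5, which links droplets to mitochondria, was between 7.17 and 13.8 CPM (median 10.1) in the PFA pigs and at 29.6, 33.6, 30.8, 31.7 and 41.1 CPM in the OO + PFA pigs (log2 fold change 1.70, SE 0.31, adjusted p = 0.00409). PLIN2, the common droplet coat of hepatocytes, was at 11.05 to 15.4 CPM (median 13.3) against 16.4, 24.5, 34.1, 36.8 and 57.2 CPM, and OP-79 was just above the PFA pigs (log2 fold change 1.34, SE 0.28, adjusted p = 0.0142). G0S2, an inhibitor of the lipase PNPLA2, was at 2.33 to 8.96 CPM (median 3.88) against 24.02, 14.9, 24.7, 42.6 and 63.8 CPM (log2 fold change 2.79, SE 0.51, adjusted p = 0.00469), and PNPLA2 itself, which starts triglyceride breakdown, at 4.26 to 20.3 CPM (median 9.63) against 42.3, 39.8, 28.8, 44.4 and 54.9 CPM (log2 fold change 1.87, SE 0.47, adjusted p = 0.0447). ABHD5, the co-activator of PNPLA2, changed by 0.90 and the endothelial lipase LIPG by 2.06. All 6 lay without overlap between the groups, as did 158 of the 218 called genes in all. The call of PNPLA2 was lost in 12 alternatives, and without OP-137 only 3 of the 6 genes were called. Markers of adipocytes also did not overlap: the summed level of the 5 genes found was 2.29 to 4.83 CPM in the PFA pigs and 6.68 to 8.72 in the OO + PFA pigs. PLIN1 and FABP4, the only ones that could be tested, were not called (adjusted p = 0.0947 and 0.134, edgeR), 1 of the 5 genes was at 0 in all 11 pigs, and their part in the droplet genes was not tested.

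In fat synthesis and desaturation 1 gene was called higher and 1 lower of 22 (9.09%, against 1.58% of all genes). THRSP, a lipogenic protein induced by insulin and thyroid hormone, fell, with 624 to 1556 CPM (median 876) in the PFA pigs and 397, 451, 468, 286 and 387 CPM in the OO + PFA pigs (log2 fold change -1.20, SE 0.24, adjusted p = 0.00814). ELOVL2, which lengthens polyunsaturated fatty acids, rose (log2 fold change 1.47, SE 0.36, adjusted p = 0.0379), at 27.4, 127, 165, 103 and 107 CPM against 18.4 to 51.0 CPM (median 39.8), and OP-79 alone lay within the PFA pigs. Its call was lost in 11 alternatives. Of 28 genes of cholesterol synthesis and uptake 0 were called by edgeR, 4 higher by DESeq2 and 5 higher with all 24 libraries, and 6 lay without overlap, all higher, against 4.69% of all genes. Of 18 genes of bile acid synthesis and transport 1 was called, NR0B2, a nuclear receptor that represses bile acid synthesis (log2 fold change 2.74, SE 0.50, adjusted p = 0.00424). Among 16 apolipoprotein and assembly genes APOA4 was called, at 17.5, 47.7, 23.5, 16.8 and 675 CPM against 2.86 to 17.4 CPM (median 8.68). OP-137 stood far above the rest, and without it the call of APOA4 was lost. MFSD2A, a carrier of lysophospholipids, was between 0.375 and 1.87 CPM (median 1.30) without oil and at 32.8, 19.3, 6.76, 1.77 and 31.4 CPM with it, where OP-126 lay within the PFA pigs (log2 fold change 3.93, SE 0.58, adjusted p = 4.98e-04).

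**Figure D2:**
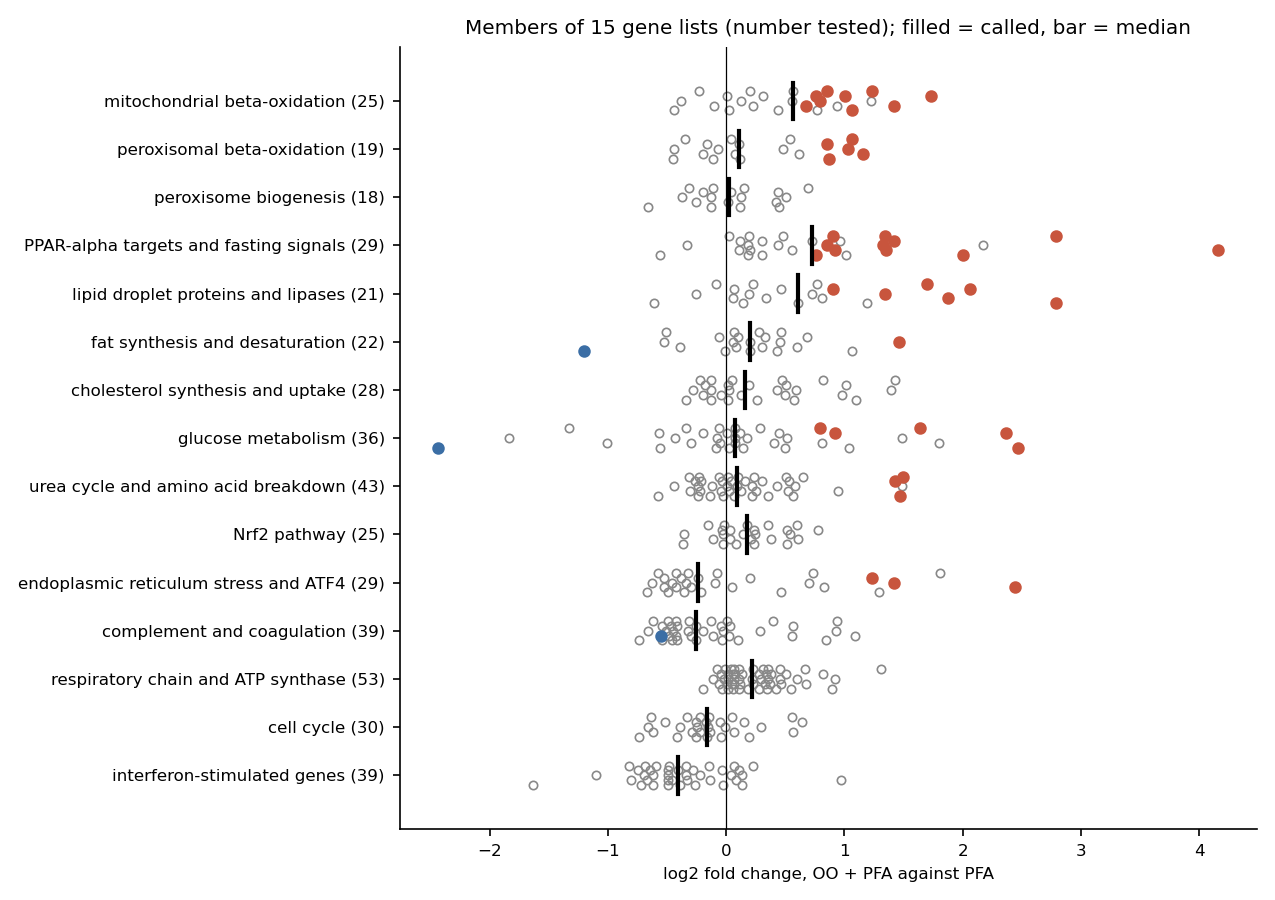
Log2 fold change of OO + PFA against PFA for each tested member of 15 gene lists, 1 point per gene, filled red where called higher, filled blue where called lower and open where not called, with the list median as a bar. The medians of PPAR-alpha targets (0.72), lipid droplet proteins (0.61) and mitochondrial beta-oxidation (0.57) lie farthest to the right, and interferon-stimulated genes (-0.40) farthest to the left with 0 genes called.

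Several genes of gluconeogenesis rose. In the list of glucose metabolism 5 of 36 genes were called higher and 1 lower (16.7%, against 1.58% of all genes, median 0.08). PCK1 (ENSSSCG00000007507, chromosome 17, 57930507 to 57936523), the cytosolic enzyme that commits carbon to glucose, lay between 164 and 412 CPM (median 355) in the PFA pigs and at 1079.5, 1620.4, 823, 1455 and 4073 CPM in the OO + PFA pigs. The groups did not overlap, OP-137 was far above the other oil-fed pigs, and the log2 fold change was 2.47 (SE 0.39, adjusted p = 0.00122). G6PC1, which releases free glucose, was between 119 and 414 CPM (median 265) without oil and at 557, 926, 738, 1862 and 3065 CPM with it, without overlap but with a wide spread (log2 fold change 2.36, SE 0.52, adjusted p = 0.0209). PC, which makes oxaloacetate from pyruvate, was at 108 to 198 CPM (median 149.7) against 671, 417, 259, 331 and 674 CPM (log2 fold change 1.64, SE 0.27, adjusted p = 0.00150). PCK2, the mitochondrial form of PCK1, changed by 0.79 and GYS2, the liver glycogen synthase, by 0.92. PFKFB3, which makes the activator of glycolysis, fell, with 20.9 to 58.0 CPM (median 39.7) in the PFA pigs and 19.1, 6.53, 6.02, 2.41 and 2.92 CPM in the OO + PFA pigs (log2 fold change -2.43, SE 0.60, adjusted p = 0.0379). The call of G6PC1 was lost without OP-137, without OP-126 and without P-107, that of GYS2 in 16 alternatives, that of PFKFB3 in 12 and that of PCK2 in 8. Without P-107 2 genes of the list were called higher, and in the PigLiv libraries 0 genes of the list were called.

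A few genes of the urea cycle and amino acid breakdown rose as well. ARG1, the last enzyme of the urea cycle, was between 117 and 224 CPM (median 140.4) in the PFA pigs and at 267, 589, 248, 585 and 418 CPM in the OO + PFA pigs (log2 fold change 1.47, SE 0.22, adjusted p = 5.05e-04), and it kept its call under all 25 alternatives. TAT, which breaks down tyrosine and is a classic target of the glucocorticoid receptor, was at 342 to 698 CPM (median 474) against 1204, 1309.5, 1036, 2301 and 1059 CPM (log2 fold change 1.49, SE 0.25, adjusted p = 0.00165). AGXT, which converts glyoxylate to glycine, changed by 1.43. These were the 3 called of 43 genes of the urea cycle and amino acid breakdown (6.98%, against 1.58% of all genes). The other 40 were not called, and the list median was 0.09. KLF15, a transcription factor of amino acid breakdown, was at 20.7 to 47.7 CPM (median 26.7) against 95.5, 71.1, 51.9, 77.2 and 75.3 CPM (log2 fold change 1.33, SE 0.24, adjusted p = 0.00346). IGFBP1, a binding protein that insulin represses, was between 18.4 and 102.1 CPM (median 54.2) without oil and at 162, 622, 192, 557 and 489.7 CPM with it, without overlap (log2 fold change 2.79, SE 0.64, adjusted p = 0.0262). The call of AGXT was lost in 12 alternatives and that of IGFBP1 in 8, among them the fits without OP-98, OP-126 or OP-137.

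SIK1, a kinase that CREB induces and that feeds back on it, was between 3.34 and 8.22 CPM (median 4.53) without oil and at 31.2, 43.5, 13.4, 38.8 and 68.2 CPM with it, 8.12-fold higher (log2 fold change 3.02, SE 0.44, adjusted p = 4.98e-04). SLC25A25, a mitochondrial carrier of ATP-Mg, was at 13.6 to 22.6 CPM (median 14.98) against 60.1, 54.6, 37.4, 77.7 and 161 CPM (log2 fold change 2.28, SE 0.31, adjusted p = 2.25e-04). Neither gene's groups overlapped. Several early response genes, named after their values were seen, rose too: NR4A1 (log2 fold change 2.999), NR4A2 (1.80), JUN (1.69), IER3 (2.41), CCN1 (2.25), KLF6 (0.93), FOSL2 (0.86), ZFP36 (1.25), RND1 (1.91) and NOCT (1.33). The spread was wide: NR4A1 was at 4.99, 18.3, 3.33, 4.41 and 27.7 CPM in the OO + PFA pigs and 0.551 to 2.36 CPM (median 1.55) in the PFA pigs, with OP-98 and OP-137 the highest, as they were for ATF3 (7.70, 41.6, 7.65, 15.999 and 59.8 CPM), a stress-induced factor, and CXCL2 (0.978, 8.72, 0.699, 1.32 and 2.68 CPM), a neutrophil chemokine. Without OP-137, 8 of these 10 early response genes were not called, all but JUN and CCN1, and neither were ATF3 and CXCL2. JUN and CCN1 kept their calls without any single pig, but JUN lost its call with the GC slope term and with GC correction, and both lost it in the PigLiv libraries.

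The bases before the annotated starts of the called genes were searched for 2 motifs, since these genes moved together. The cAMP response element was searched as TNACGTCA (reverse complement TGACGTNA) and the DR1 element that PPAR-alpha with RXR can bind as AGGNCANAGGNCA (reverse complement TGNCCTNTGNCCT), on both strands of the 250 bases before the start. The motifs do not overlap in the windows shown. TNACGTCA was found in 6 of 145 windows of called higher genes (4.14%), in 1 of 35 of called lower genes (2.86%) and in 381 of 11042 windows of all tested genes (3.45%). AGGNCANAGGNCA was found in 1, 0 and 28 of these windows (0.69%, 0% and 0.254%). The share for TNACGTCA was close to that of all genes, and the single match of the longer motif allows no comparison. Besides PCK1 and PPP1R15A, TNACGTCA was found before ARG2, ACOX3, GYS2 and GPCPD1, called higher, and LARP1B, called lower. The call of ABHD5 was lost in 5 alternatives and that of PPP1R15A in 2. The windows of PCK1, PPP1R15A and ABHD5 are shown as examples of matches in genes named here. They were read from Sscrofa11.1 with the RefSeq annotation, plus strand, with the matched letters in capitals.
PCK1, chr17:57930257-57930506: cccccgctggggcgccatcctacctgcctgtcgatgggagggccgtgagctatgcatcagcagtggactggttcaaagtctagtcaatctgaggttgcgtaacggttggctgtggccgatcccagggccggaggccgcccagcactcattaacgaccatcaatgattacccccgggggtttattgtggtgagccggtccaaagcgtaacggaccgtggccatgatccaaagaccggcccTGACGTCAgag
PPP1R15A, chr6:54171788-54172037: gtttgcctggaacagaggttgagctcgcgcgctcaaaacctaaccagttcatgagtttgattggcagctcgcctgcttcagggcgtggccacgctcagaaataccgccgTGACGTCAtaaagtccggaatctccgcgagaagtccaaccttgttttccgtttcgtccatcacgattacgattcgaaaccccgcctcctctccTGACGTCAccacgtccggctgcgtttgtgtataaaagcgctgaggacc
ABHD5, chr13:27006081-27006330: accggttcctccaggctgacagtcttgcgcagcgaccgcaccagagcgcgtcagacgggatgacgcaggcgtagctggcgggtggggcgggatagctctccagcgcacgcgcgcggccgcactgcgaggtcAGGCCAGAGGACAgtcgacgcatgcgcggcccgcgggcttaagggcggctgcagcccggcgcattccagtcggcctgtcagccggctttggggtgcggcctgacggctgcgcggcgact
The match of PCK1 starts 11 bases before the annotated start, those of PPP1R15A start 141 and 48 bases before it, and that of ABHD5 starts 119 bases before it. PPP1R15A, a regulatory subunit that reverses the stress block of translation, was at 11.3, 19.8, 6.29, 15.2 and 21.7 CPM with oil against 3.80 to 7.95 CPM (median 5.17) without (log2 fold change 1.42, SE 0.29, adjusted p = 0.0101), and ABHD5 at 112, 91.2, 78.7, 73.8 and 110.5 CPM against 38.6 to 61.1 CPM (median 47.9) (log2 fold change 0.90, SE 0.20, adjusted p = 0.0212).

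Of 29 genes of endoplasmic reticulum stress and ATF4 targets, 3 were called (10.3%, against 1.58% of all genes): ASNS, ATF3 and PPP1R15A. In this list 18 of 29 genes were below 0 (median -0.24). ASNS, asparagine synthetase, lay at 16.5, 18.1, 14.6, 20.8 and 7.38 CPM in the OO + PFA pigs and between 5.71 and 7.67 CPM (median 6.48) in the PFA pigs, with OP-137 within them (log2 fold change 1.24, SE 0.22, adjusted p = 0.00409). GDF15, a stress hormone named after its values were seen, was between 0 and 0.260 CPM (median 0.0937) without oil and at 1.14, 1.16, 0.666, 1.81 and 3.12 CPM with it. At most 8 counts were seen in a PFA library, and the log2 fold change was 3.85 (SE 0.57, adjusted p = 5.05e-04). DDIT4, which dampens mTORC1, rose by 1.60 on the log2 scale, GTPBP2 by 1.35, CARS1, a tRNA synthetase, by 1.11 and SLC3A2, a subunit of amino acid carriers, by 0.85. DDIT4, CARS1 and SLC3A2 were named after their values were seen, and CARS1 lost its call in 14 of 22 alternatives and SLC3A2 in 16 of 25. TP53INP2, a protein of autophagy, was between 11.4 and 16.7 CPM (median 13.8) without oil and at 28.0, 54.7, 35.1, 45.8 and 44.8 CPM with it (log2 fold change 1.60, SE 0.18, adjusted p = 1.20e-05).

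No gene of the Nrf2 pathway, which drives antioxidant defence, was called. Of 25 genes of this pathway 0 were called higher or lower by edgeR and 0 by DESeq2, with a median of 0.18 and 17 above 0. Over all genes 1.58% were called, so 0 in a list of this size does not set it apart. BLVRB, a reductase, alone lay without overlap, at 73.6, 62.4, 52.6, 57.2 and 78.4 CPM with oil against 25.9 to 51.0 CPM (median 37.4) without. Its log2 fold change was 0.78 (SE 0.32, adjusted p = 0.160) and ran from 0.12 to 1.41 over the alternatives. Among all genes 4.69% lay without overlap and higher, so 1 of 25 does not set this list apart either. Over all genes 3248 had an unadjusted p under 0.05 in this comparison. Of 17 genes of superoxide and peroxide removal PRDX6 was called, and it was lower (log2 fold change -0.62, SE 0.15, adjusted p = 0.0379), a call lost in 14 alternatives. SOD1 was at 471, 484, 492, 543 and 565 CPM against 326 to 507 CPM (median 355) (log2 fold change 0.44, SE 0.13, adjusted p = 0.0868) and TXNRD1 at a log2 fold change of -0.02 (SE 0.15, adjusted p = 0.943). Among 23 genes of lipid aldehyde detoxification DHRS4 and RETSAT were called. Of 13 cytochrome P450 genes 0 were called by edgeR or DESeq2. Of 19 conjugation genes 3 were called: SULT1B1 (log2 fold change 1.35) and NNMT (2.89) higher, and SULT1C2 lower, at 4.10, 7.18, 6.79, 6.57 and 6.01 CPM against 9.65 to 18.2 CPM (median 15.3) (log2 fold change -1.27, SE 0.21, adjusted p = 0.00165). NNMT was at 576, 55.7, 30.3, 72.7 and 33.0 CPM in the OO + PFA pigs and 11.5 to 50.3 CPM (median 15.2) in the PFA pigs. OP-79 stood far above the rest, and without it the log2 fold change of NNMT was 1.21 and the call was lost.

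Fewer genes fell, and 12 of 46 passed 2-fold against 121 of the 172 that rose. KCNMA1, a calcium-gated potassium channel, had the smallest p among those with a symbol, at 5.55, 9.97, 7.95, 6.91 and 4.30 CPM in the OO + PFA pigs against 17.1 to 38.5 CPM (median 21.9) in the PFA pigs (log2 fold change -1.78, SE 0.28, adjusted p = 0.00101). TFRC, which takes up iron bound to transferrin, was at 81.9, 85.7, 83.5, 59.5 and 73.8 CPM against 136 to 304 CPM (median 184) (log2 fold change -1.43, SE 0.30, adjusted p = 0.0139), and HJV, a co-receptor that raises hepcidin, changed by -0.72. These were the 2 called of 22 genes of iron handling (9.09%, against 1.58% of all genes). TAFA2, a secreted protein, was at 0.505, 0.516, 1.06, 0.604 and 0.568 CPM against 1.31 to 4.06 CPM (median 2.26) (log2 fold change -1.95, SE 0.39, adjusted p = 0.00836). Others were TENT5C, a poly(A) polymerase (-0.82), ILDR2 (-0.87), FAM187B (-1.52), PKP4, a junction protein (-0.56), NXT2, an RNA export factor (-1.02), PARP8 (-0.74), ST3GAL5, which makes a ganglioside (-0.60), the chaperone DNAJB1 (-0.70), the protease MMP19 (-0.73), THRB, the thyroid hormone receptor of the liver (-0.61), and C8A of the complement pore (-0.55). With the GC slope as a term in the fit 8 genes were called lower, and the calls of TFRC, THRSP, ILDR2, PKP4, NXT2, PARP8, ST3GAL5, DNAJB1, MMP19, THRB, C8A and PFKFB3 were lost, while KCNMA1 and FAM187B kept theirs and SULT1C2, TENT5C, HJV and TAFA2 had no GC value. THRB and C8A each lost the call in 14 alternatives.

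In the other lists few genes were called, against 1.58% of all genes. PPARGC1B, a coactivator of mitochondrial genes, was called with NR0B2 among 24 (log2 fold change 1.69, SE 0.41, adjusted p = 0.0358), a call lost in 11 alternatives, and SLC27A2 with ACSL1 among 18. CEBPB, a factor of gluconeogenesis and the acute phase, was 1 of 19 acute phase genes called (log2 fold change 1.51, SE 0.28, adjusted p = 0.00424). With GC correction the log2 fold change of CEBPB was 0.073 (adjusted p = 0.933, edgeR), and the call was also lost in the PigLiv libraries. Of 53 subunits of the respiratory chain and ATP synthase 0 were called by edgeR and 3 by DESeq2, with 45 above 0 and 9 without overlap, all higher, against 4.69% of all genes. Of 39 interferon-stimulated genes 0 were called by edgeR and 3, all lower, by DESeq2, with 8 above 0, and DTX3L came closest (log2 fold change -0.80, SE 0.21, adjusted p = 0.0506). Of 30 cell cycle genes 0 were called by edgeR and 1 by DESeq2, with a median of -0.16. By edgeR 0 genes were called among 32 proteasome subunits, 34 ribosomal proteins, 31 collagen and matrix genes, 21 clock genes and 13 genes of the mitochondrial genome, whose medians lay between -0.05 and 0.17, and DESeq2 called 1 gene in these 5 lists, in the clock list. Among 8 genes also assayed by qPCR in these animals, NNAT and CPT1A were called by edgeR, and MGLL (log2 fold change 0.72), FABP3 (0.96), HS3ST2 (2.17), SOD1, PEX11A and TXNRD1 were not. DESeq2 also called FABP3 and SOD1. CCL26 had too few counts to be tested.

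No marker gene of 12 cell types was called. Apart from adipocytes, the summed levels overlapped between the diets, for example 560 to 1368 CPM against 620 to 1682 for macrophages and 43.0 to 83.2 against 44.4 to 85.5 for T and NK cells. Markers of the exocrine pancreas were near 0, at 1.16 to 2.77 CPM in the PFA pigs and 1.26 to 6.66 in the OO + PFA pigs, with 4 of 8 genes at 0 in all 11 pigs. In a piece of whole tissue, fewer cells of a type and less RNA per cell cannot be told apart.

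The same oil effect without PFA is OO against control, which shares no library with the comparison above but shares its estimate of the spread. There 375 genes were called (2.71%), 190 higher (1.37%) and 185 lower (1.34%). Of the 172 genes higher with oil in PFA-fed pigs, 73 (42.4%) were also called higher without PFA, which is 38.4% of the 190, and 0 were called lower. Of the 46 lower genes 10 (21.7%) were called lower without PFA, 5.41% of the 185. The 190 genes called higher without PFA had a median of 1.11 on the log2 scale there and 0.83 with PFA, where 185 of 190 were above 0. The 185 genes called lower without PFA had a median of -0.70 there and -0.05 with PFA, where 80 were above 0. Over all tested genes 57.1% had the same sign in both comparisons. Each set was chosen on 1 of the comparisons, and the medians are a description.

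**Figure D3:**
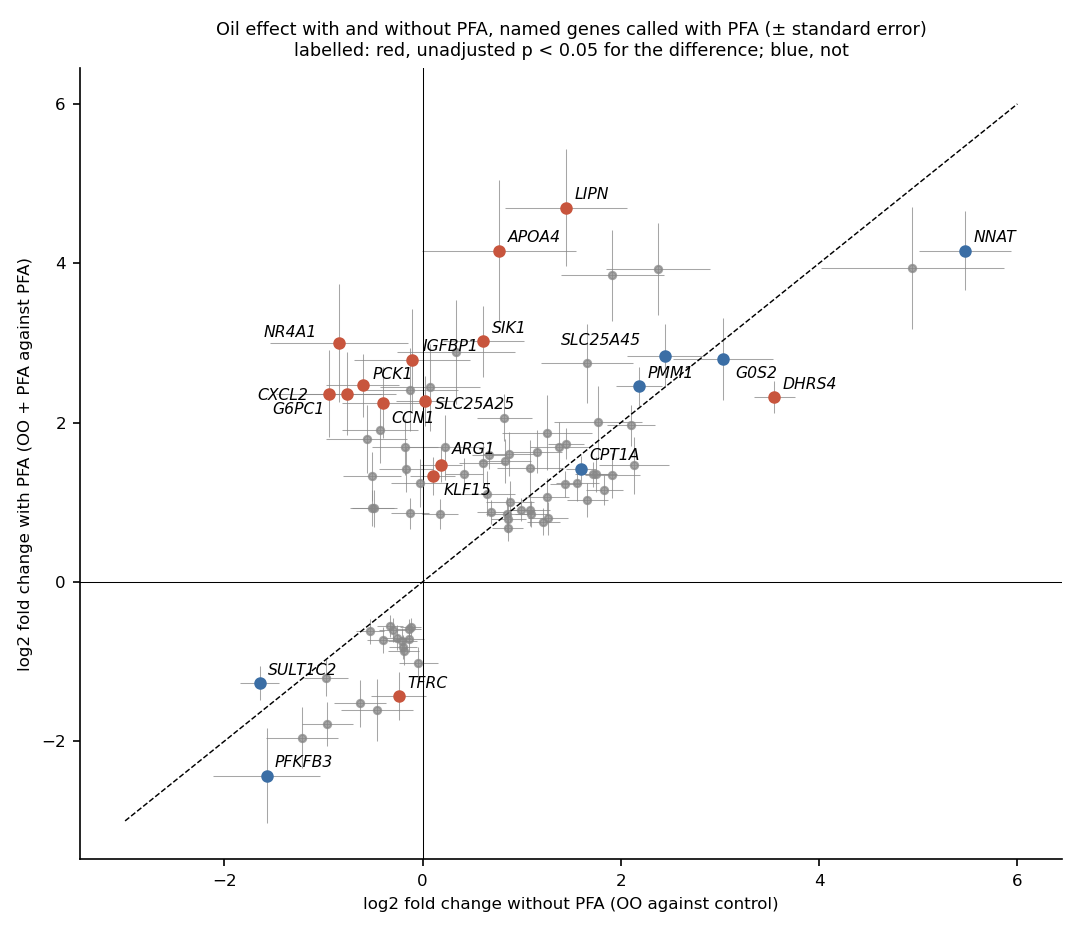
Log2 fold change by oxidized oil in PFA-fed pigs (vertical axis) against that in pigs without PFA (horizontal axis) for the named genes called with PFA, with standard errors and a dashed line of equal effects. PMM1 and CPT1A lie near the line, NNAT (4.16 with PFA, 5.47 without) lies below it, and PCK1 (2.47 with PFA, -0.60 without), G6PC1 and CXCL2 lie above it on the left.

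The difference between the oil effects with and without PFA was tested gene by gene. No gene was called (0 of 13831, edgeR, lowest adjusted p = 0.0505), and 1881 (13.6%) had an unadjusted p under 0.05. In 1089 of them (7.87%) the log2 fold change by oil was more positive in PFA-fed pigs, and in 792 (5.73%) more negative. More positive can mean a smaller fall: 135 of the 185 genes called lower without PFA, a set chosen on that comparison, were among the 1089. DESeq2's Wald test called 161, 144 of them more positive. For CPT1A the oil effect was 1.42 with PFA and 1.60 (SE 0.15, adjusted p = 4.93e-07) without, with a difference of -0.18 (SE 0.21, adjusted p = 0.738). CPT2 differed by 0.29 (SE 0.26, adjusted p = 0.632) and ACADVL by -0.21 (SE 0.22, adjusted p = 0.701). Of the 25 mitochondrial oxidation genes 0 had an unadjusted p under 0.05 for the difference, with a median difference of -0.21, which does not show that the effects were equal. For DHRS4 the oil effect was 2.32 with PFA and 3.55 (SE 0.21, adjusted p = 1.84e-10) without, a difference of -1.23 (SE 0.28, adjusted p = 0.134), and DESeq2 called it.

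PCK1 had the smallest p for the difference. Its means were 676 ± 307 CPM (SD, n = 6) in control and 445 ± 157 CPM (SD, n = 6) in OO, against 327 ± 88.9 CPM (SD, n = 6) in PFA and 1810.3 ± 1303 CPM (SD, n = 5) in OO + PFA, so oil came with a lower mean without PFA and a higher one with it. The difference of the log2 fold changes was 3.07 (SE 0.54, adjusted p = 0.0505), just above the threshold for a call. Over the alternatives its adjusted p ranged from 4.64e-05 (DESeq2) to 1.0 in the PigLiv libraries alone, where the difference was 2.04, and with the term for pairs on no gene, where it was 2.11. SLC25A25, DEF6 (2.35), ID1 (-2.51) and DNAJC17 (1.49) came next by p, named after their values were seen, with adjusted p of 0.0979, 0.132, 0.134 and 0.134 (edgeR). ID1, which blocks helix-loop-helix transcription factors, went the other way, with an oil effect of -0.21 with PFA and 2.30 (SE 0.37, adjusted p = 9.14e-04) without. DEF6 and DNAJC17 were called lower with oil without PFA (-1.57 and -0.90, adjusted p = 0.0109 and 0.0255, edgeR). With PFA neither was called (0.78 and 0.58). The mean of DEF6 was 5.22 CPM in control and 2.15 CPM in PFA, so the diets without oil already differed. SLC25A25 differed by 2.25 (SE 0.42, adjusted p = 0.0979), G6PC1 by 3.12 (SE 0.71, adjusted p = 0.134), CCN1 by 2.65 (SE 0.60, adjusted p = 0.134) and CXCL2 by 3.31 (SE 0.76, adjusted p = 0.134). ARG1 (1.29), KLF15 (1.23), SIK1 (2.41), IGFBP1 (2.90), GYS2 (1.41), NOCT (1.84) and PPP1R15A (1.59) had differences of the same sign on the log2 scale, each with an adjusted p between 0.134 and 0.179 (edgeR). DESeq2 called the difference for each of the genes named here except IGFBP1. Of 36 genes of glucose metabolism, 6 had an unadjusted p under 0.05 with a more positive log2 fold change by oil in PFA-fed pigs. In 2 more of them the change was more negative. Of 43 genes of the urea cycle and amino acid breakdown, 10 were more positive at this threshold and 1 more negative. Over all genes the shares were 7.87% more positive and 5.73% more negative. For 14 of 39 interferon-stimulated genes and 8 of 30 cell cycle genes the unadjusted p was under 0.05 with a more negative log2 fold change, against 5.73%. By edgeR none of these passed after adjustment, while DESeq2 called PCK1, G6PC1, GYS2, SLC37A4, GCKR, ARG1, GLS2 and KMO in the first pair of lists and 0 genes in the second.

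**Figure D4:**
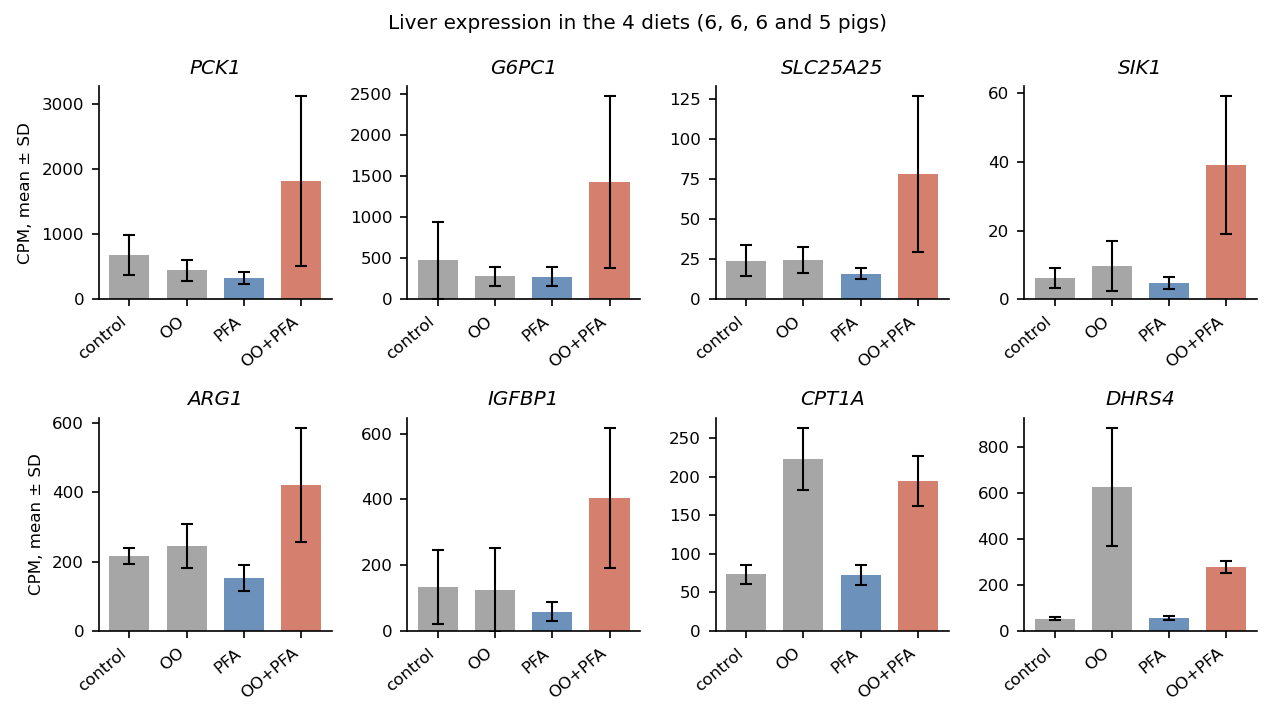
Mean CPM with SD of 8 genes in control (6 pigs), OO (6 pigs), PFA (6 pigs, blue) and OO + PFA (5 pigs, red), on linear axes from 0. PCK1, G6PC1, SLC25A25, SIK1, ARG1 and IGFBP1 are highest in OO + PFA, while CPT1A and DHRS4 are high in both diets with oil.

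The number of genes called moved with the setting. With the slope on GC content as a term, in the 11042 genes with a GC value, 80 genes were called, against 206 in the same genes without the term, and 8 of the mitochondrial oxidation genes and 9 of the PPAR-alpha targets were among them. With the share of read pairs on no gene as a term 135 genes were called, including 10 mitochondrial oxidation genes and 3 genes of glucose metabolism. Fitted on the 11 libraries alone, without the spread of the OO and control pigs, 963 genes were called and 202 of the 218 were among them.

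**Figure D5:**
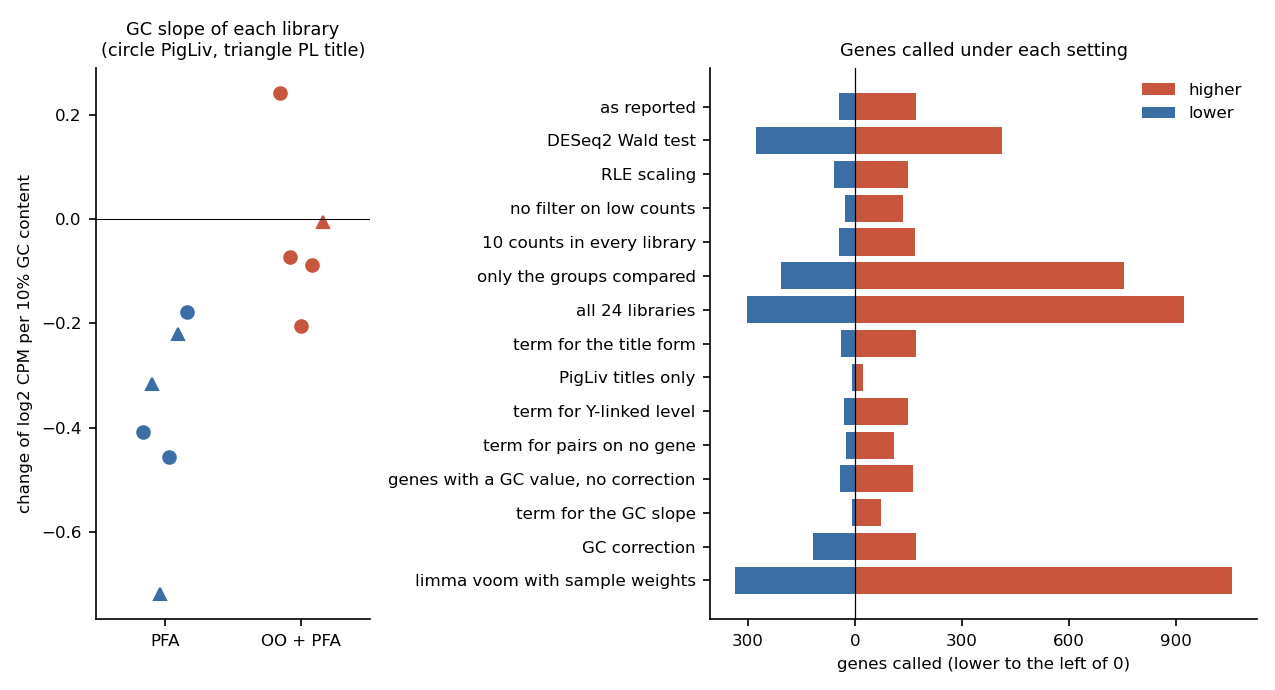
Left, the change of log2 CPM per 10% GC content in each library, circles for PigLiv and triangles for PL titles, lower in the 6 PFA pigs (blue) than in most of the 5 OO + PFA pigs (red). Right, the number of genes called higher (red) and lower (blue) with oil in PFA-fed pigs under each setting, 172 and 46 as reported and from 30 to 1394 genes in all.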

How the data were processed

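Poly(A) RNA of liver was sequenced, and per the submitters' processing notes the authors aligned read pairs with STAR 2.6.1d to Sscrofa11.1 and counted them per gene with HTSeq. The deposited table holds raw counts for 25880 genes, not normalized. The annotation release and strand option are not given in the sources used here, so overlapping and antisense genes are uncertain. Gene symbols were found for 14859 genes.

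Counts were tested with edgeR 4.0.16 in R 4.3.3 (TMM scaling, filterByExpr, quasi-likelihood test) on 23 liver libraries of 4 diets, which share 1 estimate of the spread, without pig OP-77. Contrasts were OO + PFA against PFA, OO against control, and their difference. A gene was called at a Benjamini-Hochberg adjusted p of at most 0.05, and tests were two-sided. Pigs shared 1 pen per diet, so p-values measure only the spread between these pigs. Code was tested on simulated data. DESeq2 1.42.0 and limma 3.58.1 served as alternatives, beside other scalings, filters, terms and each pig left out. Promoter windows of 250 bases came from the RefSeq annotation of Sscrofa11.1.

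Named were the 15 genes of smallest p among those called in each direction, up to 4 called genes per list (or its gene of smallest p), the qPCR genes, up to 10 genes called for the difference, and the 5 called genes of largest fold change in each direction. Further called list members, and genes said to be so, were named after their values were seen. The members, lists and tests were chosen with earlier results of these data known.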

Additional observations from a re-analysis of the deposited data

Results flagged for a closer look

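In 13 of 204 groups of pigs tested, 1 pig lay apart from the rest by Dixon's test, and chance alone gives about 1 in 20. With oil, APOA4 was at 675 CPM in OP-137 against at most 47.7 in the other pigs, ELOVL2 at 27.4 in OP-79 against at least 103, FAM187B at 0.264 in OP-126, PSMD3 at 136 in OP-79 and TAFA2 at 1.06 in OP-105 against at most 0.604. Without oil, PCK1 was at 164 CPM in P-95 against at least 299 in the others, PEX11A at 24.8 and GTPBP2 at 4.66 in the same pig, which had the steepest GC slope. KCNMA1 was at 38.5 and CCL26 at 0.787 in P-107, ID1 at 7.12 and NNMT at 50.3 in P-67, and SLC25A25 at 22.6 in P-138. The call of APOA4 was lost without OP-137.

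The pig left out of the comparison, OP-77, had NNAT at 3.29 CPM, within the 1.17 to 3.44 of the other OO + PFA pigs and above every PFA pig. In 25 of 30 leading genes OP-77 lay beyond the PFA pigs on the same side as the other OO + PFA pigs. These genes were chosen on the comparison itself, and no share over all genes is given, so the count is a description. The library of OP-77 was unusual. Its 10 most abundant genes held 48.3% of counted pairs, while the highest share among the 5 pigs used was 26.8%. Alignments at several positions came to 36.6 per 100 counted pairs, where those 5 reached at most 5.77. Its GC slope was 0.43, and theirs at most 0.24.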

How the results depend on the processing

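Against 218 genes called as reported, DESeq2 called 688, the 11 libraries alone 963, all 24 libraries 1225, voom with sample weights (chosen after seeing the data) 1394, the PigLiv libraries 30, a term for pairs on no gene 135 and a term for the GC slope 80. Leaving out 1 pig gave 103 (without OP-137) to 411 (without P-138), with 111 without P-95, 116 without P-67, 117 without P-107 and 124 without OP-126. The difference of the oil effects gave 161 genes by DESeq2, 2 by RLE scaling, 2 with no filter, 3 with a term for Y-linked level, 6 with GC correction, and 0 to 4 with 1 pig left out, against 0 as reported. OO against control gave 375 genes, 1087 by DESeq2 and 194 from its 12 libraries alone. The cause of these changes was not tested, beyond the fewer libraries or genes that some settings hold. Of 89 named genes called, 74 lost the call in at least 1 alternative and 0 reversed. Genes not called that reversed were ID1 (log2 fold change 0.33 with all 24 libraries, 0.17 in PigLiv), ND5 (0.41 with all 24 libraries, 0.029 with the title term, 0.12 in PigLiv, 0.049 with GC correction), PSMD3 (-0.13 with GC correction) and TXNRD1 (0.22 in PigLiv, 0.11 with the term for pairs on no gene, 0.15 with the GC slope, 0.078 with GC correction, -0.077 to 0.057 with 1 pig left out, 0.064 with voom). GC content was known for 79.8% of the tested genes, so the GC checks cover those 11042 genes and say nothing of the rest. No paired analysis was possible because the pig numbers in the labels name different animals in each diet.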
